A study of Malus domestica with 18 samples.

Results

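Pimt, the gene for protein L-isoaspartyl methyltransferase, is 1 of 18 target genes whose transcripts were followed by RT-qPCR in apple (Malus domestica) embryonic axes. It was taken by its gene name from the table of cycles and from the table of relative expression, and both held it in all 18 samples. Seeds were aged on moist sand at 33°C for 7, 14 or 21 days. Isolated embryos were either fumigated with nitric oxide (NO) for 3 h, as vapor of acidified nitrite (14.5 mM NaNO2 in 0.2 M HCl), or were left without this treatment as the control, and all were cultured for 48 h before the axes were cut. The 6 groups were thus NO-treated and control axes after 7, 14 and 21 days, each with 3 biological replicates. All seeds came from 1 cultivar, unaged seeds were not analysed here, and whether control embryos went through a mock fumigation is not given in the sources used here. None of the 20 measured genes (18 targets and the reference genes Sar1 and Pdi) is a marker of the embryonic axis, so the tissue label could not be checked against the data.

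In proteins that age, aspartyl and asparaginyl residues slowly turn into isoaspartyl residues, which kink the chain and can take away its function. The Pimt enzyme transfers a methyl group to the isoaspartyl residue, and this starts its return to a normal aspartyl residue. Dry seeds keep their proteins for long periods with little new synthesis, and in Arabidopsis the enzyme is known for its part in seed longevity and vigor. NO is a gaseous signal that acts in seed dormancy release and germination. Sar1, a small GTPase of vesicle transport, and Pdi, a protein disulfide isomerase, served as reference genes.

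The study named the Arabidopsis enzyme PIMT1 as the match of the apple protein and listed 2 apple gene models for the amplified transcript (MDP0000314934 and MDP0000299692), so the values cannot be split between them. Neither was found in the table of apple genes used here, and no genome position is given. The pair of primers that defines what was measured is shown here in lower case, 5′ to 3′.

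Forward primer: gatggtggatcatttgaagag

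Reverse primer: ctatcaatagtctccatcacttcag

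The forward primer is 21 bases long with 9 G or C bases (42.9%), and the reverse primer 25 bases with 10 (40.0%). The signal comes from this pair alone, and it was read as the quantification cycle, in which a lower cycle means more template and 1 cycle less stands for about 1 doubling.

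The cycles of Pimt lay between 23.93 and 26.51, inside the span of 19.77 to 30.76 covered by the 20 genes. After 7 days of aging Pimt crossed the threshold at 23.96, 23.93 and 24.06 cycles in NO-treated axes, against 24.59, 24.61 and 24.70 cycles in control axes. After 14 days it did so at 26.50, 26.44 and 26.51 cycles in NO-treated axes, against 24.23, 24.11 and 24.17 cycles in control axes. At 21 days the values were 25.75, 25.58 and 25.65 cycles with NO, against 25.62, 25.55 and 25.51 cycles in the control. The Pimt cycles of NO-treated and control axes were thus apart after 7 and 14 days, in opposite directions, and overlapped after 21 days. Replicates differed little, with an SD between 0.0351 and 0.0852 cycles within the 6 groups.

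**Figure D1:**
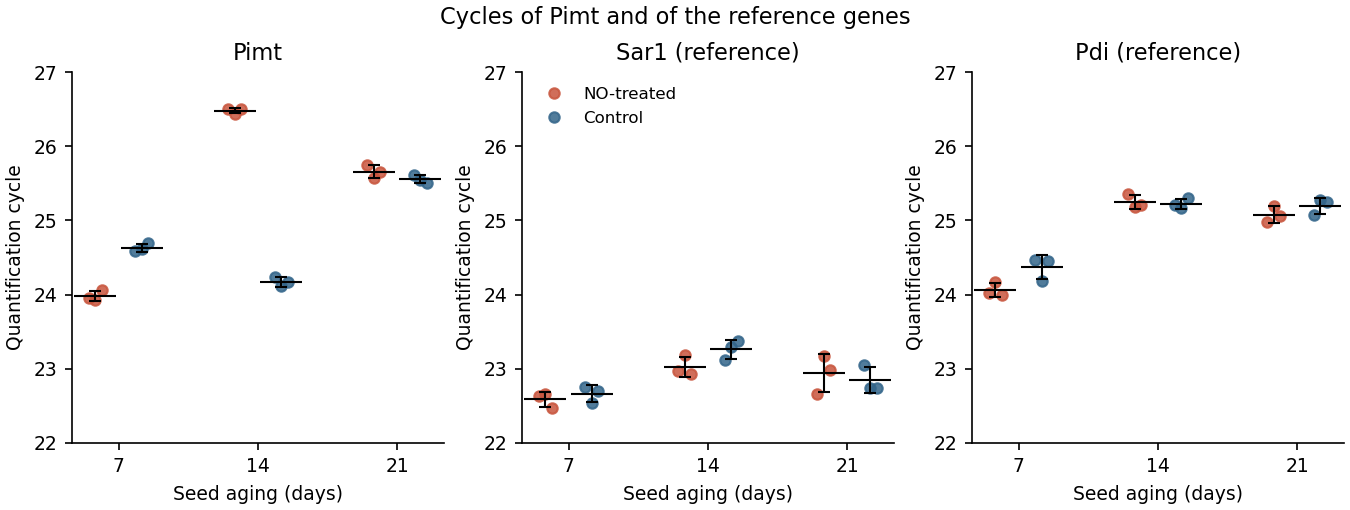
Quantification cycles (y axis, cycles) of Pimt, Sar1 and Pdi by seed aging (x axis, days), with NO-treated samples left of control samples at each time. Points are samples and bars are the mean ± SD (n = 3); NO-treated axes after 14 days stand apart for Pimt (mean 26.48 cycles, against 24.17 in the control) but not for Sar1 or Pdi.

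The mean reference cycle moved less between NO-treated and control axes than the cycle of Pimt. With NO, the mean of Sar1 and Pdi changed by -0.19 cycles after 7 days, -0.10 cycles after 14 days and -0.01 cycles after 21 days, and the NO-treated and control ranges of this mean overlapped at each time. Over the same comparisons the cycle of Pimt changed by -0.65, 2.31 and 0.10 cycles. Taken singly, Sar1 changed by -0.075, -0.23 and 0.097 cycles and Pdi by -0.31, 0.027 and -0.12 cycles, so that after 21 days each moved about as much as Pimt. After 7 days Pdi came up earlier with NO without overlap, at 24.17 cycles or before in NO-treated axes and at 24.19 cycles or later in control axes. The authors' relative expression of Pimt followed these cycles, with a root mean square difference of 0.00662 on the log2 scale from values derived here from Pimt, Sar1 and Pdi. For Pimt, relative expression is thus a ratio to both reference genes, with the controls of each day scaled by the authors to about 1. Its log2 was compared with limma over all samples, with p adjusted over the 18 target genes and called at an adjusted p under 0.05. The values come from whole axes, so fewer cells that hold the transcript and less transcript per cell cannot be told apart.

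Pimt was expressed at a higher level with NO than without it in axes from seeds aged for 7 days. The relative expression was 1.42, 1.52 and 1.23 in NO-treated axes, against 1.10, 0.913 and 0.999 in control axes. Every NO-treated sample was above every control sample. The means were 1.39 ± 0.150 with NO and 1.0 ± 0.0917 in the control (SD, n = 3 each), which is a 1.38-fold level with a 95% confidence interval of 1.15 to 1.66. The difference passed the test (0.47 ± 0.13 on the log2 scale, SE, limma adjusted p = 0.00487), as did 6 of the 18 genes (33.3%). The call was lost in the methods' own test of each gene alone once its p-values were adjusted (adjusted p = 0.0632). An exact two-sided permutation test gave p = 0.1, the lowest available with 3 samples a side.

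After 14 days of aging NO had the opposite effect on Pimt, and the change was far larger. The relative expression was 0.185, 0.196 and 0.173 in NO-treated axes, against 0.906, 1.03 and 1.07 in control axes. The groups did not overlap, and the highest NO-treated sample was far below the lowest control sample. The means were 0.185 ± 0.0114 with NO and 1.0 ± 0.0864 in the control (SD, n = 3 each), that is 5.42-fold lower with NO (-2.44 ± 0.13 on the log2 scale, SE, limma adjusted p = 5.7e-14). The 95% confidence interval of the ratio was 0.154 to 0.222. At this time 8 of the 18 genes were called (44.4%). The log2 change of Pimt was the lowest of the 18, both on the deposited scale and from the cycles. The 5 scales derived from the cycles shift all genes alike, so they cannot differ in this order.

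When aging lasted 21 days, no difference in Pimt between NO-treated and control axes passed the test. The relative expression was 0.766, 1.11 and 0.943 with NO, against 0.987, 0.995 and 1.02 in the control. The NO-treated samples lay on both sides of the controls and were more spread, with means of 0.940 ± 0.173 with NO and 1.0 ± 0.0156 in the control (SD, n = 3 each). The log2 fold change was -0.11 with a standard error of 0.13 (adjusted p = 0.569 from limma), and the 95% confidence interval of the ratio reached from 0.774 to 1.12. At this time 8 of the 18 genes were called (44.4%). Centred on the mean of the 18 target genes, Pimt was called higher with NO (log2 fold change 0.43, adjusted p = 1.1e-04 from limma), while against Sar1 alone the log2 fold change was 0.00. Without NO replicate 1 the log2 fold change on relative expression was 0.034 (adjusted p = 0.887).

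**Figure D2:**
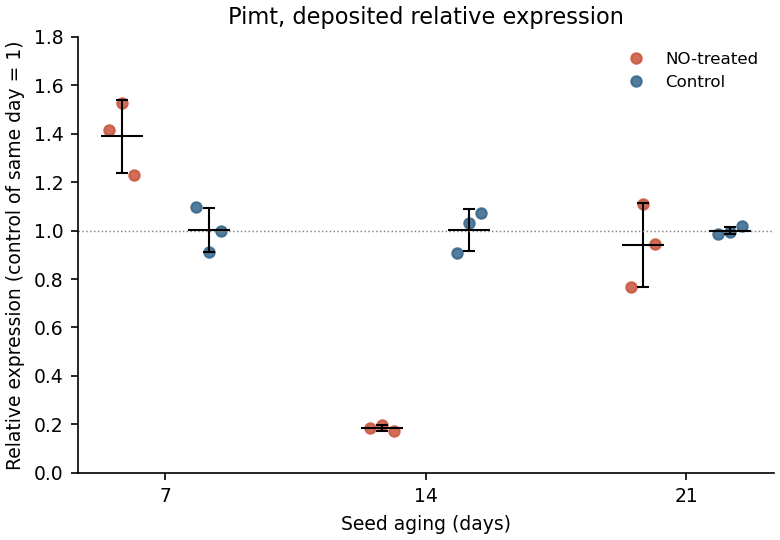
Relative expression of Pimt (y axis, ratio, controls of each day near 1) by seed aging (x axis, days), NO-treated left of control. Points are samples and bars are the mean ± SD (n = 3); the means with NO are 1.39 after 7 days, 0.185 after 14 days and 0.940 after 21 days.

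Whether the NO effect itself changed with aging was tested as the difference between 2 log2 fold changes in the same fit. The effect after 14 days was below that after 7 days (difference -2.91 ± 0.18, SE, limma adjusted p = 3.5e-12), where 11 of the 18 genes were called (61.1%). From 14 to 21 days the effect came back up by 2.33 (standard error 0.18, adjusted p = 1.3e-10 from limma), where 9 of the 18 genes were called (50%). Both differences kept their call on every scale derived from the cycles and without any 1 of the samples compared. The effect after 21 days was also below that after 7 days, by a smaller amount (difference -0.57 ± 0.18, SE, limma adjusted p = 0.0259), where 3 of the 18 genes were called (16.7%). This last call was lost against Sar1 alone (adjusted p = 0.0894) and when centred on the 18 genes (-0.19, adjusted p = 0.177). Leaving out the first NO-treated sample of 21 days gave -0.43 (adjusted p = 0.0781), and the call was also lost without any 1 of 3 samples of 7 days, which were NO-treated replicate 2 (adjusted p = 0.0569) and the control replicates 2 (0.0555) and 3 (0.0507).

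Of the 18 genes, 3 were called with NO both after 7 and after 14 days, and on relative expression only Pimt of these 3 had opposite directions at these times. A change of direction was not particular to Pimt. Of 4 genes called both after 7 and after 21 days, 1 had opposite directions (Hsp70c). Of 4 called both after 14 and after 21 days, 3 did (Saur, Hsp70c and Hsp20a). No test set Pimt against the other genes. The 10 chaperone genes of the series (the disaggregases ClpB1 and ClpB4, the chaperonins Cpn60a and Cpn60b, the small heat shock proteins Hsp20a and Hsp20b, Hsp90, and Hsp70a, Hsp70b and Hsp70c) act on the folding state of proteins, whereas Pimt acts on a chemical change of a residue. After 7 days 2 of the 10 were higher with NO and 1 was lower, with a median log2 fold change of 0.145, against 0.12 over the 18 genes, of which 3 were higher and 3 lower. The 2 that were higher like Pimt were ClpB4, a disaggregase (log2 fold change 0.54, adjusted p = 6.7e-04 from limma), and Hsp70c, matched to a mitochondrial Hsp70 of Arabidopsis (log2 fold change 0.70, adjusted p = 1.6e-04 from limma). After 14 days, when Pimt was lower, 3 chaperone genes were higher and none of the 10 was called lower (median 0.15, against -0.045 over the 18 genes, of which 3 were higher and 5 lower). After 21 days 2 chaperone genes were higher and 3 lower (median -0.0033, against -0.062 over the 18 genes, of which 3 were higher and 5 lower). For Hsp70b the deposited ratio departs from its cycles by a root mean square of 0.778 on the log2 scale. For Hsp90, Cpn60a, Cpn60b, Tor, Raptor and the Lea genes it departs by 0.187 to 0.214, and for the others by at most 0.021. The part of all these departing genes in the counts thus rests on the deposited ratio.

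**Figure D3:**
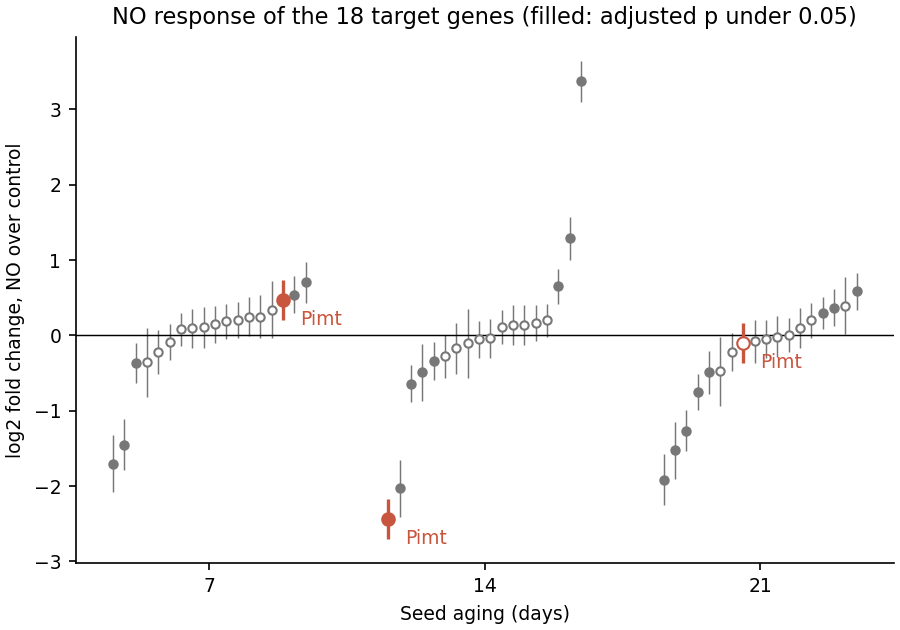
log2 fold change of NO-treated over control axes (y axis) for the 18 target genes, ordered from the lowest to the highest change within each aging time (x axis, days), with 95% confidence intervals. Filled points have an adjusted p under 0.05 from limma, and Pimt is in red, at 0.47 after 7 days, -2.44 after 14 days and -0.11 after 21 days.

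Because relative expression is near 1 in every control, the course of Pimt over aging was derived from the cycles, as the mean cycle of Sar1 and Pdi minus the cycle of Pimt, with 1 doubling per cycle and the 7-day control set to about 1. In NO-treated axes the level was 1.40, 1.52 and 1.22 after 7 days, 0.428, 0.452 and 0.401 after 14 days and 0.570, 0.826 and 0.701 after 21 days. The means were 1.38 ± 0.149, 0.427 ± 0.0258 and 0.699 ± 0.128 (SD, n = 3 each), so the transcript level with NO was highest after 7 days and lowest after 14 days, with no overlap between the 3 times. In control axes the level was 1.10, 0.912 and 1.0 after 7 days, 2.07, 2.35 and 2.44 after 14 days and 0.734, 0.743 and 0.759 after 21 days. The means were 1.0 ± 0.0926, 2.28 ± 0.195 and 0.745 ± 0.0129 (SD, n = 3 each), again with no overlap between times, but with the highest level at 14 days, where NO-treated axes had their lowest, and the lowest at 21 days.

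**Figure D4:**
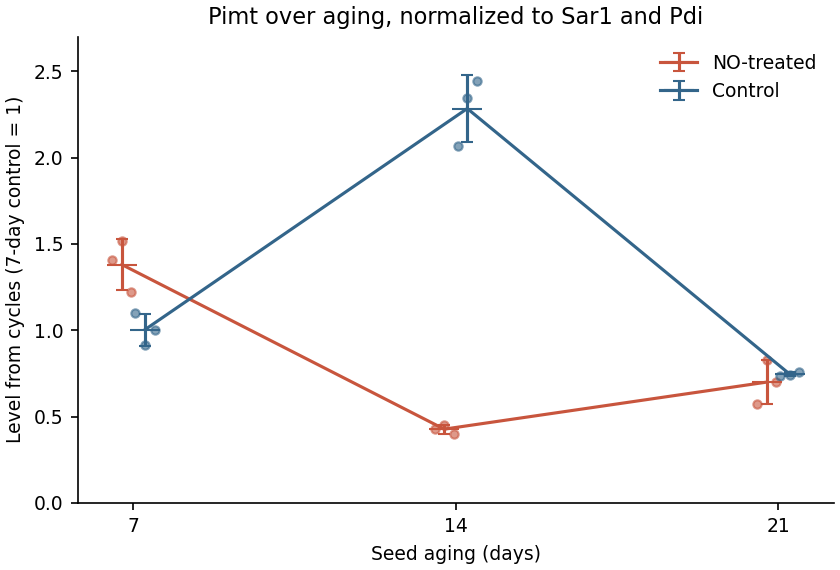
Level of Pimt normalized to Sar1 and Pdi (y axis, 7-day control near 1) by seed aging (x axis, days) in NO-treated and control axes. Points are samples, and bars and lines give the mean ± SD (n = 3); after 14 days the means are 0.427 with NO and 2.28 in the control.

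In NO-treated axes Pimt after 14 days fell to 0.310 times the level after 7 days (-1.69 ± 0.14 on the log2 scale, SE, limma adjusted p = 9.6e-12), where 12 of the 18 genes were called (66.7%). From 14 to 21 days it rose 1.62-fold (0.70 ± 0.14 on the log2 scale, SE, limma adjusted p = 2.8e-05), where 17 of the 18 genes were called (94.4%). After 21 days Pimt was at 0.503 times its 7-day level with NO (-0.99 ± 0.14 on the log2 scale, SE, limma adjusted p = 1.8e-07), where 14 of the 18 genes were called (77.8%). Without a reference gene the 14-day and 21-day log2 fold changes against 7 days were -2.50 and -1.67, since the reference cycles were later by 0.81 and 0.68. Centred on the 18 genes, the change from 7 to 21 days was no longer called (-0.15, adjusted p = 0.10), and that from 14 to 21 days was 1.30.

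In control axes Pimt rose after 14 days compared with 7 days (1.19 ± 0.14 on the log2 scale, SE, limma adjusted p = 8.0e-09), where 14 of the 18 genes were called (77.8%). Its change was the highest of the 18 genes, in an order that is the same by construction on all 5 scales derived from the cycles. Of this rise, the Pimt cycle itself gave 0.46, since Pimt came up earlier by that many cycles after 14 than after 7 days, and the later cycles of Sar1 and Pdi (by 0.73 on average, 0.60 for Sar1 and 0.86 for Pdi) gave the rest. Without a reference gene the log2 fold change was accordingly 0.46 (adjusted p = 1.2e-05 from limma). The authors also deposited control values scaled to about 1 after 7 days, and on this scale Pimt stood at 1.25, 1.42 and 1.48 after 14 days, a mean of 1.38 ± 0.119 (SD, n = 3), against 2.28 from the cycles of Pimt, Sar1 and Pdi. As log2 changes from 7 days, these deposited values gave 0.47 after 14 days and -0.94 after 21 days, close to the 0.46 and -0.93 of Pimt cycles with no reference gene. The study's methods state that expression was normalized to 2 reference genes. Why the deposited values scaled to 7 days follow the Pimt cycles alone was not tested.

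Between 14 and 21 days of aging Pimt fell in control axes to 0.327 times its 14-day level (-1.61 ± 0.14 on the log2 scale, SE, limma adjusted p = 2.8e-11), where 16 of the 18 genes were called (88.9%). The Pimt cycle was later by 1.39 cycles after 21 days, while the mean reference cycle was earlier by 0.22. This fall and the rise before it run against the changes in NO-treated axes over the same days. The fall was called on all 5 scales derived from the cycles, with log2 fold changes between -1.81 and -1.39. It was the lowest of the 18 changes, an order that these scales cannot alter because they shift all genes alike.

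After 21 days the control level of Pimt was 0.745 times that after 7 days (-0.42 ± 0.14 on the log2 scale, SE, limma adjusted p = 0.00621), where 13 of the 18 genes were called (72.2%). This smaller fall depended on the normalization. The call was lost against Pdi alone (log2 fold change -0.10, adjusted p = 0.502 from limma), and the direction turned when centred on the 18 genes (log2 fold change 0.044, adjusted p = 0.642). The call was also lost when the study's kind of test across days (Tukey's test) was applied to the levels derived here from the cycles (adjusted p = 0.0988). Between these times the Pimt cycle was later by 0.93, the Sar1 cycle by 0.18 and the Pdi cycle by 0.83. On the deposited scale set to 7 days the 21-day controls were at 0.516, 0.521 and 0.532, and the fall was called (log2 fold change -0.94, adjusted p = 1.2e-06 from limma). The study itself reported Pimt lower after 21 than after 7 days.

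**Figure D5:**
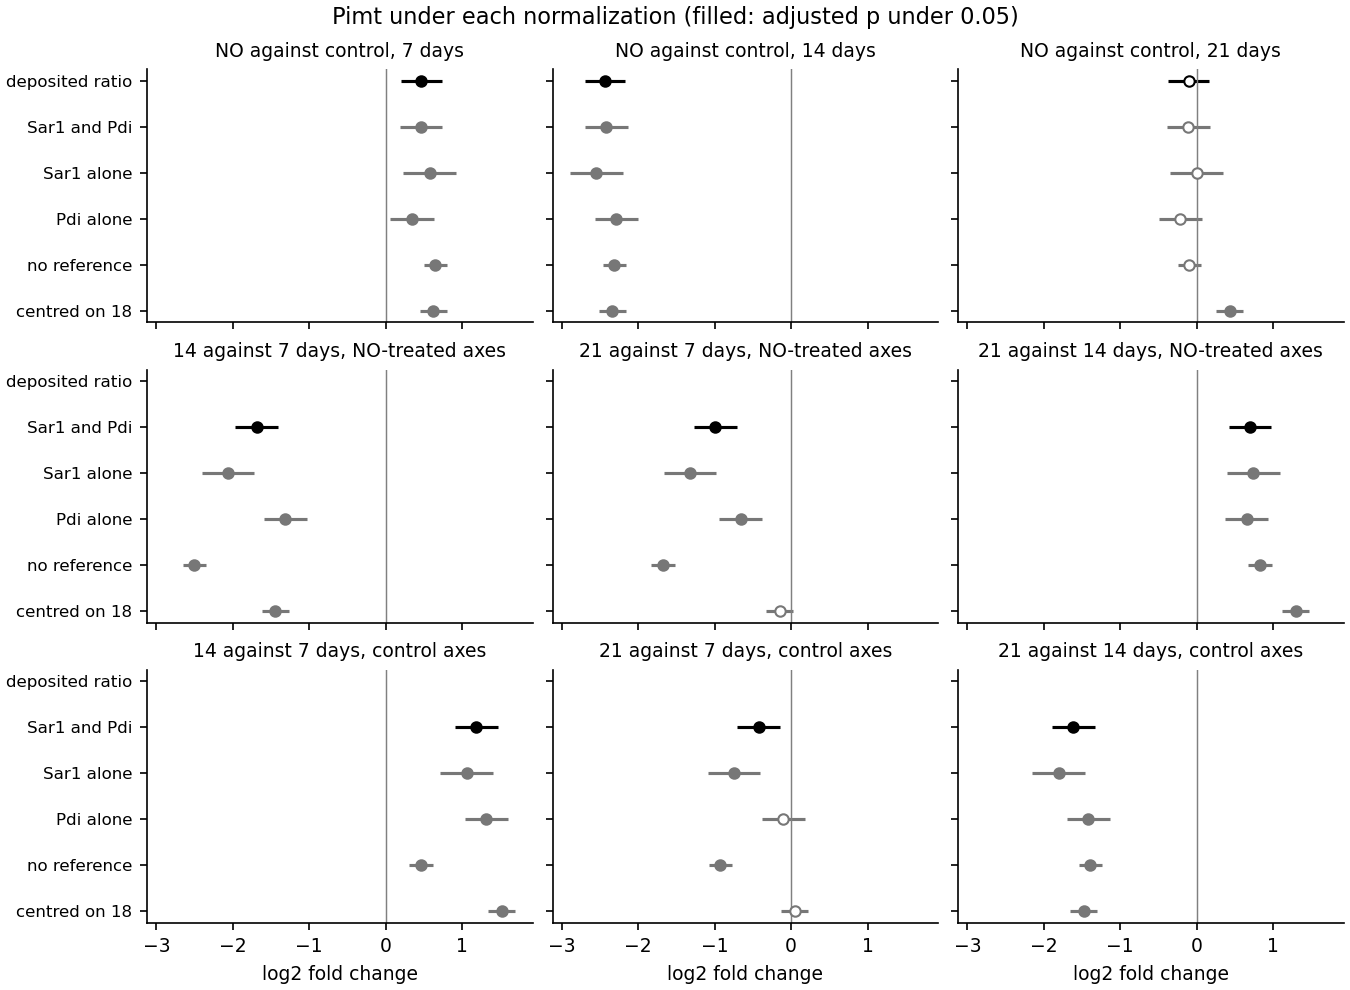
log2 fold change of Pimt with its 95% confidence interval (x axis) under each normalization (y axis) in 9 comparisons, namely NO over control at each time (top row) and the later over the earlier time in NO-treated axes (middle row) and in control axes (bottom row). Black marks the scale used for the values in the text, and filled points have an adjusted p under 0.05 from limma. The change with NO after 14 days lies between -2.55 and -2.29 on the 6 scales, while 21 against 7 days in control axes runs from -0.93 to 0.044.

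Set in order on the scale of Sar1 and Pdi, the level of Pimt was highest in control axes after 14 days (2.28), followed by NO-treated axes after 7 days (1.38), control axes after 7 days (1.0), control axes after 21 days (0.745), NO-treated axes after 21 days (0.699) and NO-treated axes after 14 days (0.427). The lowest mean (NO-treated) and the highest mean (control) belong on this scale to the same aging time, 14 days, and differed 5.35-fold. The top place depended on the reference genes, since by cycles alone Pimt came up first in NO-treated axes after 7 days (mean 23.98 cycles) and next in control axes after 14 days (24.17 cycles), without overlap. Neighbours in this order did not overlap, except for NO-treated and control axes after 21 days, whose gap of 0.11 on the log2 scale was below the SD of the NO-treated samples (0.27). The other gaps were between 0.42 and 0.73. The SD within groups was largest on the log2 scale in 21-day NO-treated axes (0.27) and smallest in 21-day control axes (0.025). In the 21-day NO-treated samples the Pimt cycles had an SD of 0.0852 and the mean reference cycle 0.183, and Sar1 alone was at 22.66, 23.17 and 22.99 cycles.

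Over the 18 samples, the highest correlations with the level of Pimt on the scale of Sar1 and Pdi were those of Lea2a (Pearson r = 0.69, Spearman rho = 0.69), Lea4 (r = 0.52, rho = 0.67) and ClpB1 (r = 0.48, rho = 0.49), given as a description. Lea2a and Lea4 encode late embryogenesis abundant proteins and ClpB1 a disaggregase. All levels share the same Sar1 and Pdi cycles, and the samples fall into 6 groups, so these points are not independent. With no reference gene the r values were 0.78, 0.65 and 0.63, and when centred on the 18 genes 0.56, 0.30 and 0.32, where Saur (0.31) was above Lea4. Over deviations from the group means the r of every other gene was positive, from 0.16 (Saur) to 0.80. Hsp90 (0.80), Hsp70b (0.78) and Tor (0.75) had the highest values there, and Lea2a, Lea4 and ClpB1 were at 0.55, 0.59 and 0.54. Over the levels themselves Hsp90, Hsp70b and Tor were at -0.25, 0.32 and 0.31, and with no reference gene Hsp90 was at -0.64. In the size of their NO response at the 3 times, the nearest genes were Saur (root mean square difference from Pimt 1.13 on the log2 scale), Lea2a (1.16) and Lea4 (1.22). These distances come mostly from 14 days, where their log2 fold changes were -0.64, -0.49 and -0.34, against -2.44 for Pimt. All 3 were called lower there, among 5 of the 18 genes, and this follows in part from how they were picked. After 21 days Saur was called higher with NO (log2 fold change 0.59, adjusted p = 2.2e-04 from limma), while Pimt, Lea2a and Lea4 were not called.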

How the data were processed

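RT-qPCR values of embryonic axes from 18 samples in 6 groups of 3 biological replicates were used, and groups and replicate numbers were taken from the sample labels and the table headers. Per the labels, 200 ng of total RNA was reverse transcribed and amplified with SYBR Green for 40 cycles. The authors deposited quantification cycles, averaged over technical runs, with no normalization. They also deposited relative expression, by the study's methods a ratio to the reference genes, in which the authors scaled the controls of each day to about 1. For part of the target genes this ratio departs from the cycles, as given above. Control values as a ratio to 7 days were deposited too. The study's methods name 2 reference genes for expression in general, and their use in the ratio to 7 days is not given separately. Another deposited table holds the authors' own fold changes and was not used. How cycle thresholds were set is not given in the sources used here.

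NO effects and their differences between days were fitted on log2 relative expression, and changes between days on levels derived from the cycles, each with 1 mean per group over all 18 samples and the 18 target genes (limma 3.58.1 in R 4.3.3, Benjamini-Hochberg adjustment within each comparison, threshold 0.05). The study tested each gene alone, between 2 groups for NO against control and across the 3 aging times for the course in controls, and limma was used instead to share the spread over groups and genes. The script was tested on simulated data. Alternatives were other reference genes, no reference gene, centring, linear values, 1.9-fold amplification per cycle, only the compared groups and no moderation. Others were the deposited control values scaled to 7 days, the study's own tests (that across days on levels derived from the cycles), the replicate number as a block and leaving out each replicate. Exact two-sided permutation tests (scipy 1.17.1) cannot go below p = 0.1 with 3 samples a side. They gave this value for NO against control after 7 and after 14 days and for every change between days. For NO against control after 21 days the exact permutation test gave p = 0.7. Pimt, the chaperone list and the rules for naming other genes (the 3 highest correlations and the 3 smallest distances in NO response) were chosen with earlier results of these data known. Primers were copied from the study's primer table. With 3 samples a group, precision is limited throughout.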

Additional observations from a re-analysis of the deposited data

Results flagged for a closer look

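The effect of NO on Pimt differed between aging times by a test of the difference itself, and the difference between 21 and 7 days was the least stable of the 3. The log2 fold change after 14 days minus that after 7 days was -2.91 (adjusted p = 3.5e-12 from limma), that after 21 days minus that after 7 days was -0.57 (adjusted p = 0.0259), and that after 21 days minus that after 14 days was 2.33 (adjusted p = 1.3e-10). The call for 21 minus 7 days was lost against Sar1 alone (adjusted p = 0.0894), when centred on the 18 genes (0.177) and without any 1 of 4 samples (0.0507 to 0.0781). Relative expression with NO was above that of all controls in 3 of 3 samples after 7 days and below that of all controls in 3 of 3 samples after 14 days. The 3 differences are built from the same 3 fold changes and are not separate results.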

How the results depend on the processing

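The 12 changes of Pimt were fitted 210 times under alternatives, and 197 fits kept the direction and the side of the threshold. This count does not measure stability, because part of it was fixed in advance. The 1.9-fold setting rescales all log2 values alike and could change neither. Using only the compared groups, no moderation or the replicate block left the log2 fold change as it was. The Sar1-alone value of 0.00 for NO after 21 days was counted as kept. NO against control after 7 days kept its call in the methods' own test without adjustment and lost it once adjusted (0.47, log2). After 21 days, centring on the 18 genes turned the NO effect into a called increase (0.43), and the effect ran from -0.24 to 0.034 on leaving out 1 replicate each, turning only without NO replicate 1. For 21 against 7 days in control axes, the call was lost with Pdi alone (-0.10), and the sign turned when centred (0.044). It was also lost in the study's kind of test across days, run on the levels derived from the cycles (-0.43), but not on the deposited values scaled to 7 days (-0.94, limma). In NO-treated axes this change lost its call when centred (-0.15). The NO effect after 21 days minus that after 7 days was no longer called against Sar1 alone (-0.57) or when centred (-0.19), and ran from -0.70 to -0.43 on leaving out 1 replicate each. The cause of these changes was not tested. Whether replicate numbers pair the samples could not be settled, because deviations within groups of 3 samples are too few. Over the 18 genes, deviations from the group means correlated between -0.33 and 0.49 for NO-treated and control samples of the same number. With the replicate block, the replicate number as a term of the fit, no call of Pimt changed, with limma adjusted p for NO against control of 0.00567 after 7 days (0.47), 2.0e-12 after 14 days (-2.44) and 0.529 after 21 days (-0.11). Not every NO-treated sample correlated best with the control sample of its own number.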
